A study of Mus musculus with 20 samples.

Results

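Random food restriction was compared with the control diet in the 10 mouse fat libraries that the labels mark Yes for spermatocyte contamination, out of 20 libraries in the series. They are 7 control libraries (Control 1, 2, 4, 5, 8, 9 and 10) and 3 from restricted mice (Restricted 1, 2 and 3), and the other 10 libraries, 3 control and 7 restricted, are marked No. All were polyA RNA of eWAT, the white fat pad that lies on the epididymis, and restriction combined intermittent fasting with a 5% cut in calories. The rule took the libraries by the label alone and used no expression value. Earlier results of these data were known when the libraries and the gene lists were chosen. The labels used here give no strain, sex or age. The gene differences are described with and without Restricted 1.

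White fat stores triglyceride, which its adipocytes take up from blood lipoproteins or build from glucose and acetate. That synthesis runs through Acly, Acaca, Fasn, Elovl6 and Scd1, is raised by refeeding and insulin and lowered by fasting, and is driven by the transcription factors SREBP-1c and ChREBP. Between the adipocytes lie progenitor cells and their collagen matrix, vessels, macrophages, mast cells and lymphocytes. Macrophages of fat need the Csf1r receptor, and mast cells store proteases such as Mcpt4, Cma1 and Tpsb2 in granules. A circadian clock in which Arntl and Clock bind E-boxes of DNA runs in the tissue and follows the time of feeding.

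The 10 libraries held 18291602 to 38789768 counts. The RNA integrity number was 7.1 to 7.5 in control libraries and 7.4, 6.5 and 7.3 in Restricted 1, 2 and 3. Levels are given as CPM, in which each library's counts are scaled to the same total with TMM factors over all 20 libraries, and are comparable between libraries but, without gene length, not between genes. Adiponectin (Adipoq), the secreted marker of adipocytes, lay between 3193 and 4217 CPM in control libraries and at 3427, 4052 and 4242 CPM in the restricted ones, and summed CPM of 10 adipocyte markers overlapped between the diets (51921 to 66215 against 56421 to 62003). Ucp1, the uncoupling protein of brown adipocytes, did not exceed 0.12 CPM.

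The label and the germ cell genes did not match in every library. Prm1 and Tnp1, which package DNA in spermatids, had 0 counts in Restricted 1 and Restricted 3, both marked Yes, and Prm1 was at 6.48 CPM in Control 6, which is marked No. Prm2, the other protamine, reached 60.2 CPM in Restricted 2, against 0.37 to 10.7 CPM in the control libraries marked Yes, 0.11 in Restricted 1 and 0.16 in Restricted 3. What parted the labels was a set of ciliated and absorptive epithelium genes, a list added after the values were seen. Foxj1, the master regulator of motile cilia, lay between 7.64 and 47.9 CPM in every library marked Yes and did not exceed 1.73 CPM in any marked No. Within the libraries marked Yes it also differed by library, with 12.1 CPM in Restricted 1, 47.9 in Restricted 2 and 45.6 in Restricted 3 beside 7.64 to 32.6 in controls, so Restricted 2 and 3 were the highest. Summed CPM of 22 cilia genes was 129 to 236 in controls and 163, 342 and 289 in Restricted 1, 2 and 3. Skeletal muscle transcripts were a further admixture. Ckm, the creatine kinase of muscle, lay between 50.9 and 125 CPM in Control 1, 2, 4 and 5 and at 214 CPM in Restricted 1, and at 0.80 CPM or less in Control 8, 9, 10 and Restricted 2 and 3. The part of these admixtures in single genes was not tested beyond the models with their indices as terms.

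**Figure D1:**
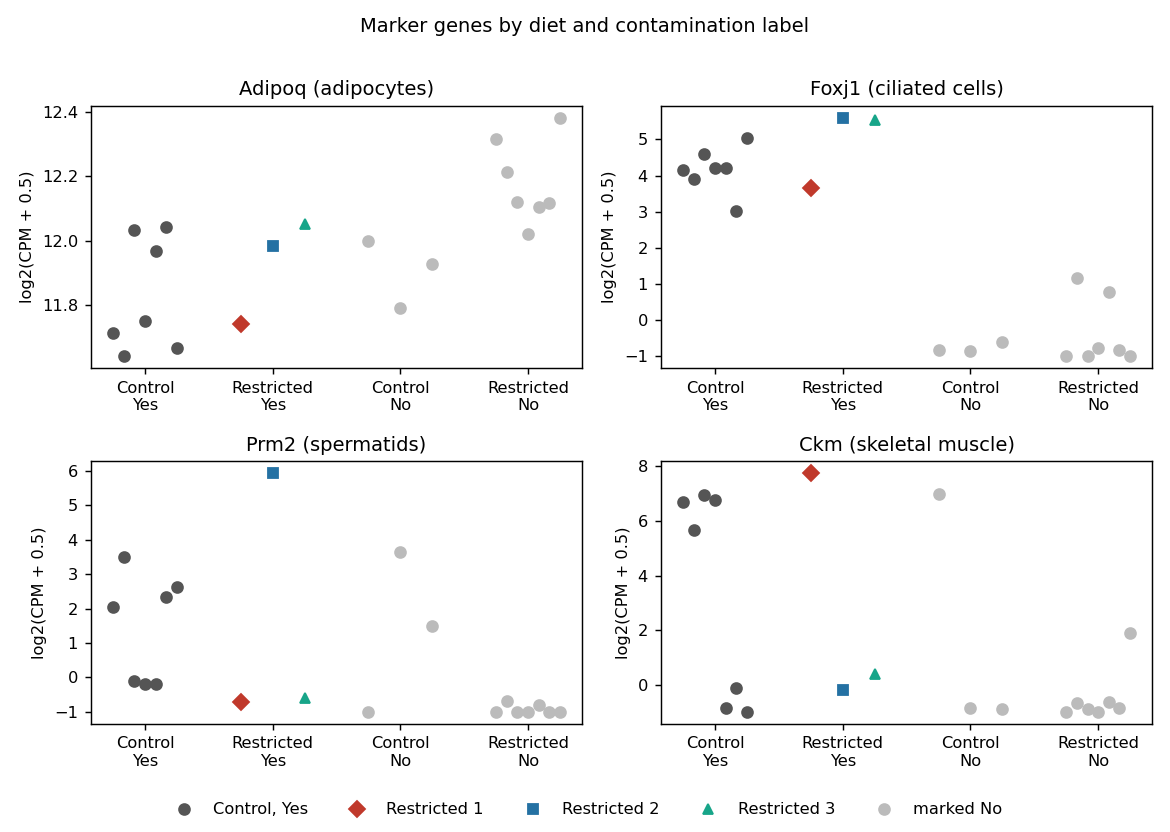
Levels of 4 marker genes on the log2(CPM + 0.5) scale (vertical axes), 1 point per library, grouped by diet and contamination label on the horizontal axes. Foxj1 separates libraries marked Yes from those marked No, Prm2 is highest in Restricted 2 (60.2 CPM), and Ckm is high in 4 controls marked Yes and in Restricted 1 (214 CPM).

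With all 10 libraries, 239 of 17069 genes (1.4%) differed between diets in edgeR's quasi-likelihood test at an adjusted p under 0.05 (Benjamini-Hochberg over all tested genes). Fewer genes rose than fell: 69 (0.404%) were higher and 170 (0.996%) lower in restricted libraries. At an unadjusted p under 0.05 there were 3105. A change of 2-fold or more was seen in 15 of the higher and 32 of the lower calls. In 238 of the 239 the 3 restricted libraries all lay outside the range of the 7 controls, 69 higher and 169 lower, as did 560 higher and 823 lower genes of the whole table. The labels do not tie each library to an animal of its own, so the p-values cover only the spread among these libraries, some of which may be technical. In bulk tissue fewer cells of a type and less RNA per cell cannot be told apart. The count moved with the samples: 13 genes were called without Restricted 3, 36 without Restricted 2, 57 without Control 10, 98 to 126 without Control 1, 2, 4 or 8, 2 with the integrity number as a term, 87 with a cilia index as a term, and 5 without the 5 libraries that held muscle transcripts, which leaves 3 controls against 2 restricted libraries.

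Immune cell genes were among those that fell. Of 28 macrophage genes, 10 fell and none rose (0.996% of all genes fell), and the median log2 fold change was −0.56, against 0.02 over all genes tested. Csf1r, the receptor for the growth factor that keeps macrophages alive, ranged from 199.96 to 272 CPM in controls (median 229) and was at 149, 144 and 160 CPM in Restricted 1, 2 and 3. All 3 restricted libraries lay below every control, and the log2 fold change was −0.59 ± 0.10 SE (edgeR, adjusted p = 0.0267). Clec10a, a sugar-binding receptor on macrophages, ranged from 65.6 to 86.9 CPM in controls and stood at 43.5, 49.2 and 52.4 CPM after restriction (−0.65 ± 0.11 SE, edgeR adjusted p = 0.0267). Cd68, a lysosomal protein of macrophages, had 39.2 to 48.9 CPM in controls and 31.3, 32.2 and 35.3 CPM in restricted libraries (−0.41 ± 0.07 SE, edgeR adjusted p = 0.027). Also lower were Adgre1 (the F4/80 antigen), Mrc1, Itgax, Lyz2, Lyve1, Tyrobp and C1qb. Restricted 1 was the lowest library for 17 of the 28 genes, against 3931 of all 17069 genes tested. Without that library 3 of the 10 stayed called and 7 did not, among them Cd68 (edgeR, adjusted p = 0.0502), while the list median was −0.52. Of those 3, Csf1r had a log2 fold change of −0.59 and Clec10a one of −0.59 (edgeR, adjusted p = 0.0464 for each), and Adgre1 one of −0.80, larger than the −0.61 with all libraries.

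Among 9 class II antigen presentation genes, 3 fell (H2-DMa, Cd74 and H2-Oa), against 0.996% of all genes, and the median was −0.53. Cd74, the invariant chain that guards the peptide groove, ranged from 832 to 1035 CPM in controls and was at 579, 724 and 764 CPM in restricted libraries. H2-DMa, which exchanges the peptide, ranged from 38.2 to 51.8 CPM in controls and was at 23.8, 31.4 and 32.9 CPM. Restricted 1 was the lowest library for 8 of the 9 genes of this list, against 3931 of all 17069 genes tested. The median shrank from −0.53 to −0.36 without that library, with none of the 9 called. H2-Oa and Ccl17, a chemokine of dendritic cells, were near 1 CPM in controls and below 0.5 CPM in each restricted library, levels of few counts at which counting error is large. T and NK cell genes (18) and B and plasma cell genes (13) gave no call, with medians of −0.60 and −0.38, and the 22 interferon response genes gave none either (median −0.26).

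Of the mast cell proteases, 3 fell by more than 2-fold. Mcpt4, a chymase (chromosome 14, positions 56059629 to 56062313, GRCm38, as in the deposited table), had 8.94, 10.4 and 14.5 CPM as the lowest, median and highest control, and 3.72, 4.33 and 4.99 CPM in Restricted 1, 2 and 3. Cma1, another chymase, ranged from 8.16 to 11.1 CPM in controls and was at 3.72, 3.86 and 4.52 CPM. Tpsb2, a tryptase, ranged from 11.4 to 16.6 CPM and was at 4.50, 6.74 and 5.15 CPM. No restricted library reached the lowest control for any of the 3, and the log2 fold changes were −1.34 ± 0.18, −1.24 ± 0.13 and −1.32 ± 0.15 SE (edgeR adjusted p = 0.0164, 0.0122 and 0.0122). They were −1.26, −1.20 and −1.22 without Restricted 1 and stayed called. Of 9 mast cell genes tested, 3 fell with all libraries, against 0.996% of all genes. Another 2 had positive fold changes, Hdc, which makes histamine (0.44), and the receptor gene Kit (0.01), neither called. Without Restricted 1 4 fell, the fourth being Cpa3, a granule carboxypeptidase (−0.96 with it, edgeR adjusted p = 0.056, and −1.22 without it, adjusted p = 0.046). Mast cell proteases have near-identical relatives, and reads can be split between them.

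Of 6 neutrophil genes 2 fell, against 0.996% of all genes, and 2 others had positive fold changes that were not called. Neither gene that fell stayed called without Restricted 1 (edgeR, adjusted p = 0.0502 for Mmp9 and for Csf3r). Mmp9, a gelatinase that neutrophils and macrophages release, had 12.7 to 26.6 CPM in controls and 6.93, 7.16 and 7.01 CPM in restricted libraries (−1.39 ± 0.24 SE, edgeR adjusted p = 0.0267). Csf3r, the receptor for granulocyte colony-stimulating factor, had 3.95 to 5.09 CPM in controls and 2.08, 2.59 and 2.71 CPM, and in libraries marked No its log2 fold change was −0.26 (edgeR, adjusted p = 0.496).

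Single stromal and matrix genes fell, with small shifts of their lists. Of 20 progenitor genes 4 fell (Bmper, Dcn, Pdgfra and Lum), against 0.996% of all genes, and 2 of these stayed called without Restricted 1. The list had a median of −0.25 and 4 positive fold changes. Of 27 matrix genes 3 fell (Timp2, Lama2 and Mmp2), against the same 0.996%, with a median of −0.20 and 8 positive fold changes. All 3 stayed called without Restricted 1 (edgeR, adjusted p = 0.0491, 0.0356 and 0.0464). Bmper, a secreted regulator of bone morphogenetic proteins (chromosome 9, positions 23223076 to 23485200), had 59.4, 64.0 and 89.7 CPM as lowest, median and highest control and 27.03, 34.8 and 36.03 CPM in restricted libraries (−1.12 ± 0.15 SE, edgeR adjusted p = 0.0164). Dcn, the proteoglycan decorin, had 1124 to 1392 CPM in controls and 693, 834 and 932 CPM, and Pdgfra, the growth factor receptor that marks progenitors, 65.8 to 94.1 against 51.7, 53.7 and 57.1 CPM. Restricted 1 was the lowest library for Bmper, Dcn and Pdgfra alike, yet their fold changes without it were −1.01, −0.54 and −0.54. Pdgfra was not called without it (edgeR, adjusted p = 0.0505). The size of the fall in Mmp2, a gelatinase of fibroblasts, depended more on that library, though Mmp2 stayed called without it. Mmp2 was at 42.3 CPM in Restricted 1 and at 66.7 and 68.9 CPM in the others, beside 83.7 to 109 CPM in controls. Its log2 fold change went from −0.65 to −0.47. Lama2, a laminin chain of basement membranes, went the other way, with 102 CPM in Restricted 1 and 84.6 and 87.4 CPM in the others (controls 108 to 144), and its fold change went from −0.51 to −0.62.

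The largest falls by the rule for naming genes were not all immune. C7, a component of the complement attack complex, had 201 to 484 CPM in controls and 117, 135 and 115 CPM in restricted libraries (−1.47 ± 0.23 SE, edgeR adjusted p = 0.0233). Col6a5, a chain of collagen VI, had 133 to 391 CPM in controls and 70.5, 85.9 and 72.7 CPM. Rab15, a small GTPase of endosomes, had 22.2 to 47.6 CPM against 10.98, 12.6 and 10.9 CPM, and Hpca, the calcium sensor hippocalcin, 6.27 to 24.6 against 2.93, 2.31 and 1.59 CPM (−2.33 ± 0.44 SE, edgeR adjusted p = 0.0325). That the restricted libraries lay below all controls was a condition for naming these 4. Without Restricted 1, C7 stayed called (edgeR, adjusted p = 0.0463). Col6a5, Rab15 and Hpca did not (edgeR, adjusted p = 0.053, 0.06 and 0.0502). Cyp2f2, a cytochrome P450, the peptidase Dpep2 and the potassium channel Kcna2 were also lower (−1.31, −1.64 and −1.34). None of these was called without Restricted 1 (edgeR, adjusted p = 0.0719, 0.0762 and 0.0563). Wt1, a transcription factor of mesothelium, fell from 9.48 to 17.4 CPM in controls to 5.29, 8.67 and 5.90 CPM. It was the only call among 9 mesothelial genes, whose median was −0.95 in libraries marked Yes and 0.02 in those marked No.

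Fewer genes rose. Fgf13, an intracellular relative of the fibroblast growth factors (chromosome X, positions 59062145 to 59568071), had 2.18, 3.11 and 6.86 CPM as lowest, median and highest control and 27.3, 15.1 and 12.6 CPM in Restricted 1, 2 and 3 (2.26 ± 0.33 SE, edgeR adjusted p = 0.0206). Bmp3, a secreted antagonist of bone morphogenetic protein signalling, had 6.96 to 20.5 CPM in controls and 33.4, 50.8 and 41.8 CPM (1.45 ± 0.25 SE, edgeR adjusted p = 0.0267). Ppp1r3b, which brings a phosphatase to glycogen, had 8.69 to 17.1 CPM in controls and 43.9, 24.5 and 30.7 CPM (1.32 ± 0.19 SE, edgeR adjusted p = 0.0228). These 3 and the myelin-type membrane protein Pllp stayed called without Restricted 1, with log2 fold changes of 1.83, 1.58, 1.04 and 1.56. Pllp was near 1 CPM in controls.

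Further genes rose but were not called without Restricted 1. Plekhg6, an exchange factor for small GTPases, had 4.80 to 9.18 CPM in controls and 22.7, 19.6 and 10.04 CPM in Restricted 1, 2 and 3. Klf14, a transcription factor of adipocytes, had 2.75 to 5.67 CPM in controls and 10.4, 10.3 and 6.85 CPM, with log2 fold changes of 1.27 with and 1.15 without that library (edgeR adjusted p = 0.0267 and 0.0502). Crtac1, a secreted matrix protein, had 15.0 to 39.7 CPM in controls and 64.0, 68.3 and 63.2 CPM (1.26 and 1.25). Adora1, through which adenosine restrains lipolysis, had 87.0 to 129 CPM in controls and 218, 158 and 147 CPM, and was the only call among 18 lipolysis genes. Pth1r, the parathyroid hormone receptor, had 10.6 to 19.3 CPM in controls and 58.8, 25.2 and 28.3 CPM, so Restricted 1 stood apart and the log2 fold change went from 1.16 to 0.65. Sycp3, a protein of the meiotic chromosome axis, was the only call among 18 germ cell genes and did not follow the spermatid genes: it was at 12.6 CPM in Restricted 1, where Prm1 and Tnp1 had no count, and at 3.30 and 3.99 CPM in the others (controls 1.30 to 2.32), and its log2 fold change went from 1.91 to 1.02. Of the 12 largest rises, Tekt1, a tubule protein of cilia, and Ttc25, a dynein docking protein of cilia, were also genes higher in libraries marked Yes than in those marked No. In all, 4 of the 69 genes that rose and 1 of the 170 that fell were of that kind, against 5.71% of all genes tested.

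**Figure D2:**
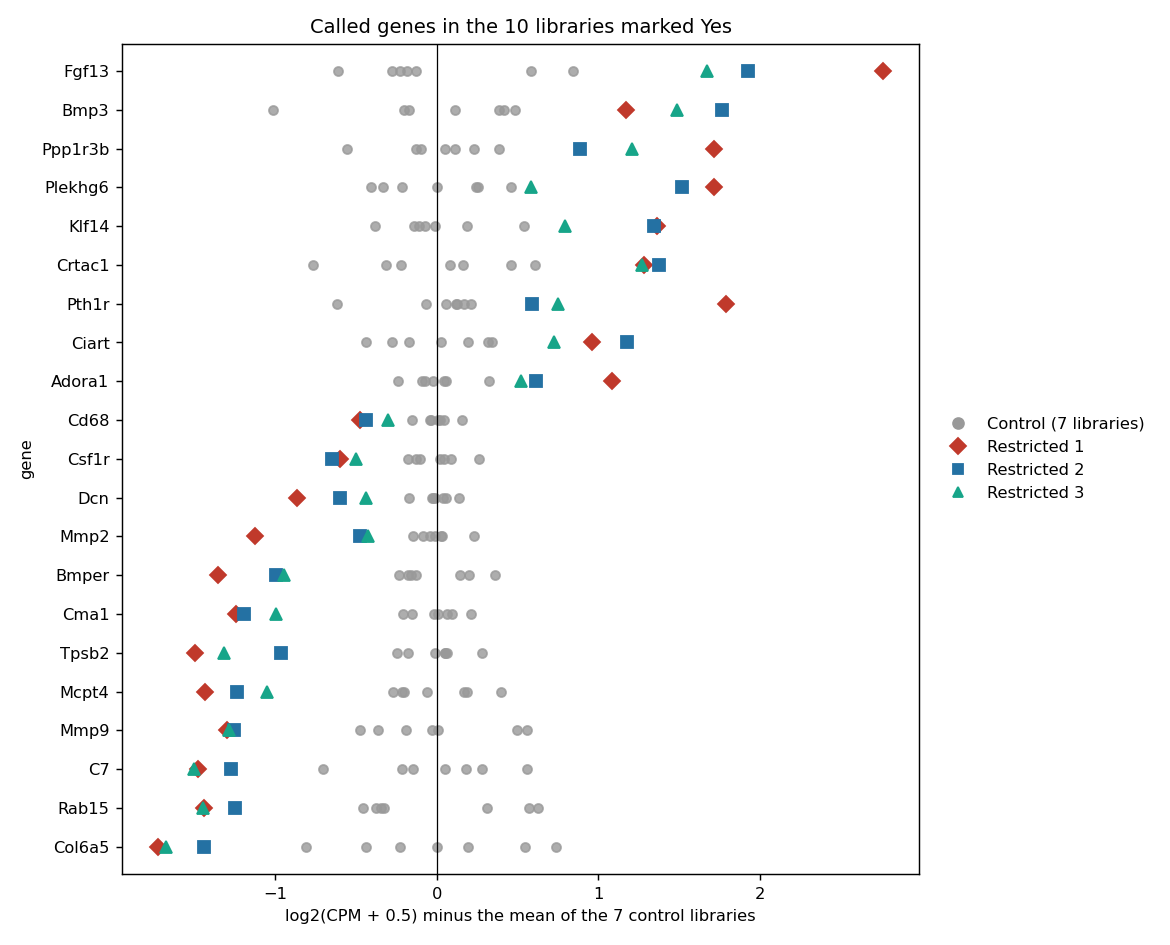
Horizontal axis, log2(CPM + 0.5) of 21 called genes (vertical axis) minus the mean of the 7 control libraries, 1 point per library marked Yes. In each gene the 3 restricted libraries lie on 1 side of all controls, as in all but 1 of the called genes. Restricted 1 is the farthest for Fgf13 and Pth1r but not for Bmp3 or Ciart.

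Clock genes were shifted in the restricted libraries, with 2 calls among 19, both higher, against 0.404% of all genes. Ciart, a repressor of the clock (chromosome 3, positions 95878503 to 95882231), had 6.69, 9.42 and 11.9 CPM as lowest, median and highest control and 18.5, 21.5 and 15.6 CPM in Restricted 1, 2 and 3 (0.98 ± 0.18 SE, edgeR adjusted p = 0.0275). Bhlhe40, another repressor, had 79.7 to 132 CPM in controls and 178, 210 and 146 CPM (0.69 ± 0.15 SE, edgeR adjusted p = 0.0496). Arntl, the activator, had 3.11 to 6.81 CPM in controls and 2.59, 2.68 and 2.60 CPM, below every control but not called (−0.78 ± 0.26 SE, edgeR adjusted p = 0.149). Restricted 1 showed less of the shift than the other restricted libraries, with a list median of 0.18 above the control mean on the log2(CPM + 0.5) scale against 0.43 in Restricted 2 and 0.38 in Restricted 3. Restricted 2 and 3 both lay above all controls for 11 of the 19 genes, against 10.8% of all genes tested. Restricted 1 lay above all controls for 5 of the 19, close to the 24.4% of all genes. Without Restricted 1 neither Ciart nor Bhlhe40 stayed called (edgeR, adjusted p = 0.0505 and 0.0803, log2 fold changes 0.96 and 0.67). There the clock output factors Dbp (0.67) and Hlf (0.64) were called higher and Clock (−0.72) lower, which with it had log2 fold changes of 0.57, 0.49 and −0.46 (edgeR adjusted p = 0.054, 0.0501 and 0.119). Hlf, for instance, was at 24.0 CPM in Restricted 1, within the controls' 21.2 to 25.01 CPM, and at 34.2 and 37.0 CPM in the others.

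The promoter of Ciart is shown because the gene was called and its window holds several copies of the E-box, the 6 letters CACGTG that Arntl and Clock bind, set in capitals. The 227 bases lie on the minus strand at chr3:95882252-95882478 (RefSeq, GRCm38.p6) and end where the GENCODE vM21 gene begins, at 95882251, which is upstream of the start in the deposited table.
Ciart: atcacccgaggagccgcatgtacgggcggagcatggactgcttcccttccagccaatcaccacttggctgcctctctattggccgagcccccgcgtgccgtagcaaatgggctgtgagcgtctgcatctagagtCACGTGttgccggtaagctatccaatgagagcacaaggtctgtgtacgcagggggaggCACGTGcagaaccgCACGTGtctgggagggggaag
The 3 copies begin 93, 35 and 21 bases before that GENCODE start. Of the 32851 promoter windows in the table (250 bases before each start, both strands searched), 6.02% held at least 1 copy and 0.0609% held 3 or more. Of 16 clock genes with an entry 5 held at least 1. An antisense gene overlaps Ciart, and the sources used here do not say whether the counting used strand.

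A called gene was counted as following Restricted 1 when it was not called without that library and kept less than 50% of its log2 fold change. None of the 239 met that rule. The count says little of Restricted 1, since a gene set apart in 1 of 3 libraries varies widely within its group and seldom passes the test. The 9 libraries without Restricted 1 gave 165 calls of 17729 genes (0.931%), 86 higher (0.485%) and 79 lower (0.446%), with 3347 at an unadjusted p under 0.05. Of the 239, 74 were called again, 21 higher and 53 lower. The other 165 had adjusted p between 0.0502 and 0.114 without Restricted 1 (edgeR, median 0.062). Over the 239, the fold change without Restricted 1 was 0.533 to 1.31 times that with it, with a median of 0.956. Restricted 1 was nonetheless the farthest of the 3 from the control mean for 106 of the 170 lower genes and for 29 of the 69 higher ones. Of the 165 called without it, 91 were not called with it. Genes higher in libraries marked Yes than No made up 28 of the 86 higher calls and 0 of the 79 lower ones. Such genes were 5.71% of all genes tested with the 10 libraries.

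DESeq2, an alternative test, called 991 of the 17069 genes (5.81%) with all 10 libraries. By the same rule 554 of these were called again without Restricted 1 and 31 followed it, all of them higher in restricted libraries. Chosen after their values were seen, Ntsr2, Cidea, Cox8b, Angptl8, Scd1, Acsl1 and Rbp4 were among the 31. Scd1, the desaturase that makes oleate, had 29820 to 41756 CPM in controls and 92530, 46087 and 40534 CPM in Restricted 1, 2 and 3. Restricted 3 thus lay within the controls, and the log2 fold change was 0.80 with all libraries and 0.31 without Restricted 1 in edgeR (adjusted p = 0.0839 and 0.154).

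**Figure D3:**
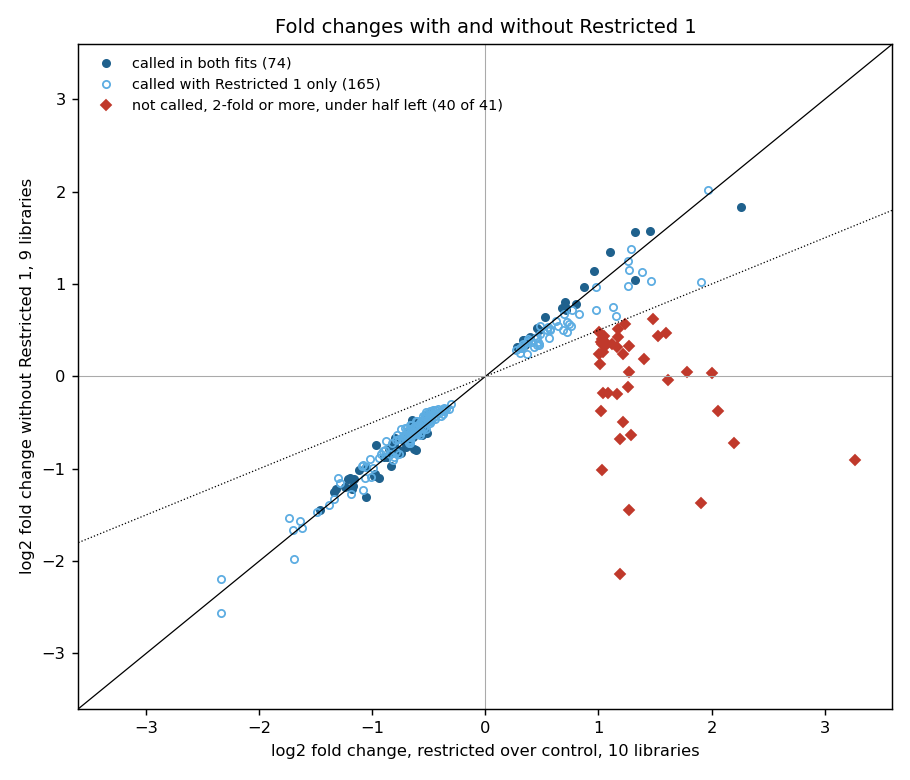
Log2 fold change of restricted over control with all 10 libraries (horizontal axis) and without Restricted 1 (vertical axis), for the 239 called genes (circles) and for genes changed 2-fold or more, not called and left with less than 50% of the change (diamonds, 40 of 41, 1 lying below the axis). Called genes follow the solid line of equal values, and the diamonds, all higher with Restricted 1, lie below the dotted line of 50%.

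What followed Restricted 1 lay among large differences that the test did not call. Among genes whose mean reached 1 CPM under either diet, 398 had a fold change of 2 or more, and 45 of those were called. In 41 of the 398 less than 50% of the log2 fold change was left without Restricted 1. All 41 were higher with it, none was called, and 17 turned to the opposite sign. Named after their values were seen, the 41 included Elovl6, Gys2, Mogat2, Fabp5, Insig1, Acss2, Cidea, Sorl1, Podnl1 and Ncan.

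Restricted 1 stood apart more than any other library by count. In it 112 genes were at least 1 log2 unit above all 9 other libraries and 18 at least 1 unit below, on the log2(CPM + 0.5) scale. The same counts were 86 and 2 in Restricted 2, 0 and 1 in Restricted 3, and up to 36 above and 17 below in single controls. Which genes stood apart differed: 10 fatty acid synthesis genes, 7 cholesterol synthesis genes and 3 muscle genes in Restricted 1, and 11 germ cell genes in Restricted 2. Restricted 1 was the highest of the 10 libraries for 21.1% of all genes tested.

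Fatty acid synthesis genes parted Restricted 1 from Restricted 2 and 3. Of 19 genes, 16 were highest in Restricted 1, and 9 were above all controls in Restricted 1 and below all controls in both Restricted 2 and 3, a pattern shown by 1.22% of all genes tested. Elovl6, the elongase that makes stearate (chromosome 3, positions 129532355 to 129634971), had 40.0, 64.3 and 87.3 CPM as lowest, median and highest control, 772 CPM in Restricted 1, and 42.2 and 34.8 CPM in Restricted 2 and 3. Its log2 fold change was 2.20 ± 0.69 SE with all libraries (edgeR, adjusted p = 0.129) and −0.72 without Restricted 1 (adjusted p = 0.131). Fasn, fatty acid synthase (chromosome 11, positions 120805846 to 120824547), had 6340 to 10248 CPM in controls, 33967 CPM in Restricted 1 and 5298 and 3616 CPM in the others. With Restricted 1 it had a positive fold change that was not called (0.76 ± 0.51 SE, edgeR adjusted p = 0.443), and without it Fasn was called lower (−0.95, adjusted p = 0.047).

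Acly, which makes the acetyl-CoA for the pathway, showed the same split, with 625 to 1411 CPM in controls, 4415 CPM in Restricted 1 and 343 and 344 CPM in the others. The cytosolic malic enzyme Me1, a source of NADPH, was at 2226, 298 and 307 CPM beside 347 to 658 CPM in controls, and Acss2, which activates acetate, at 1216, 120.5 and 122 CPM beside 156 to 325 CPM. For these 3 genes Restricted 1 lay above and Restricted 2 and 3 below every control. The list median relative to the control mean was 1.43 in Restricted 1, −0.34 in Restricted 2 and −0.28 in Restricted 3. The median fold change was thus 0.53 with all libraries and −0.35 without Restricted 1, and no gene of the list was called with all of them. Srebf1 and Mlxipl, the genes of SREBP-1c and ChREBP, were 0.54 and 0.24 above the control mean in Restricted 1, less than the list median. A raised sum of this list was not particular to Restricted 1, where it was 147274 CPM. Scd1 alone gave 92530 CPM of that, so the sum mostly reflects 1 gene. In libraries marked No the sum was 61587 to 125055 CPM after restriction and 45294 to 51565 CPM in controls. The mean log2 level of the list overlapped there (7.82 to 8.94 against 7.73 to 7.95), and only Scd1 was called (0.86, edgeR adjusted p = 0.0285). Fasn, Acly and Acss2 had log2 fold changes of 0.54, 0.36 and 0.64 there and were not called (edgeR, adjusted p = 0.483, 0.654 and 0.374).

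**Figure D4:**
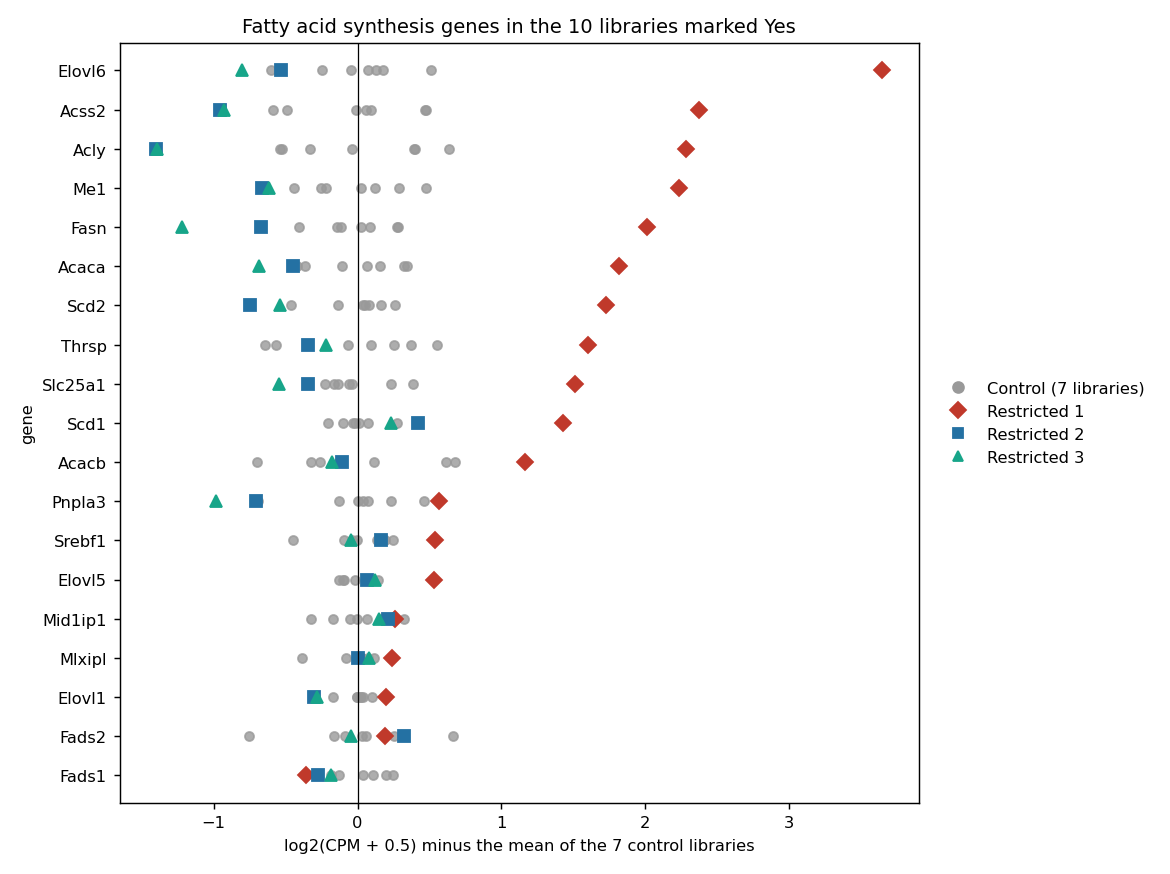
Horizontal axis, log2(CPM + 0.5) of the 19 fatty acid synthesis genes tested (vertical axis, ordered by Restricted 1) minus the mean of the 7 controls, 1 point per library marked Yes. Restricted 1 lies far to the right for 11 genes from Elovl6 to Acacb, while Restricted 2 and 3 lie left of the control mean for most of them.

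Cholesterol synthesis genes split in the same way but by less. Of 23, 18 were highest in Restricted 1, against 21.1% of all genes tested. Another count was of genes above all controls there and below all controls in both other restricted libraries, which held 7 of the 23 and 1.22% of all genes. Without Restricted 1, 4 of the 23 had a positive fold change. Insig1, which holds SREBP back in the endoplasmic reticulum and is itself an SREBP target, had 89.1 to 175 CPM in controls, 549.9 CPM in Restricted 1 and 108 and 109.6 CPM in the others. Lss, lanosterol synthase, was at 162, 33.9 and 34.4 CPM beside 39.9 to 53.8 CPM in controls. Pmvk, phosphomevalonate kinase, was called lower without Restricted 1 (−0.55, edgeR adjusted p = 0.0481) and had a fold change of 0.28 with it. Fdft1, squalene synthase, was the only gene of the list with all 3 restricted libraries above every control (99.0, 114 and 121 CPM beside 64.7 to 92.2 CPM). It was called (0.48 ± 0.10 SE, edgeR adjusted p = 0.0468), but not without Restricted 1 (0.54, edgeR adjusted p = 0.0505).

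The window before Insig1 is shown as the promoter of an SREBP target among the genes that stood apart in Restricted 1, with an E-box, which SREBP-1 also binds, in capitals. Its 201 bases lie on the plus strand at chr5:28071162-28071362 (RefSeq, GRCm38.p6) and end where the GENCODE vM21 gene begins.
Insig1: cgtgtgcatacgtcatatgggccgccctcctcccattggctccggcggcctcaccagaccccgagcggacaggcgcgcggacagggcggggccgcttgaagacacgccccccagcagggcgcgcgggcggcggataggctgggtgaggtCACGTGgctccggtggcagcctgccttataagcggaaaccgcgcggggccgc
The E-box begins 52 bases before the gene. Of 16 fatty acid synthesis genes with an entry 3 held an E-box in the 250 bases before a start, and of 16 cholesterol synthesis genes 4. An E-box was in 6.02% of all windows. The sterol regulatory element searched, TCACNCCAC on either strand, was found in 1 gene of each list (Mlxipl and Hmgcs1) and in 1.05% of all windows. It was not found before Insig1. A match is only a match of letters in this window.

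Most genes of the mitochondrial lists were also highest in Restricted 1, as were 21.1% of all genes tested. All 43 nuclear genes of oxidative phosphorylation had a positive fold change, against 9072 of all 17069 genes tested. Of the 43, 39 were highest in Restricted 1. The median was 0.18 with that library and −0.03 without it, with no call in the list. Of 20 genes of the citric acid cycle and pyruvate entry, 19 were highest there. Mpc1, a subunit of the mitochondrial pyruvate carrier, was at 283 CPM in Restricted 1 and at 81.7 and 88.2 CPM in the others, within the controls' 75.0 to 93.8 CPM. Of 22 fatty acid oxidation genes, 20 were highest in Restricted 1. mt-Co1, the mitochondrially encoded subunit of cytochrome oxidase, was at 14251 CPM there and at 8574 and 8158 CPM in the others (controls 6149 to 9720). A high level of these transcripts was not particular to Restricted 1. The summed CPM of the mitochondrially encoded genes was 36996 there, and in libraries marked No it was 27473 to 38756 after restriction and 17574 to 20674 in controls. In libraries marked No 7 of 8 genes of the list were called higher, against 0.784% of all genes. One of the 7 was mt-Co1 (0.87, edgeR adjusted p = 0.0103). Of 19 genes of insulin signalling and glucose use, 10 were highest in Restricted 1. Among them Gys2, a glycogen synthase, was at 52.2 CPM in Restricted 1 and at 6.31 and 8.02 CPM in the others (controls 4.48 to 10.6). Thermogenic genes had a median of 0.74 above the control mean in Restricted 1 and of 0.15 and −0.03 in the others, and Cidea, a lipid droplet protein of that list, was at 17.8, 5.04 and 4.62 CPM beside 1.75 to 5.21 CPM in controls. Skeletal muscle also expresses many of these mitochondrial genes, and the muscle marker sum was 4649 CPM in Restricted 1 beside 95.9 to 2440 CPM in controls and 99.4 and 116 CPM in the other restricted libraries. The part of muscle RNA in these mitochondrial levels was not tested. Elovl6 was between 51.3 and 69.2 CPM in the 4 control libraries with muscle transcripts and between 40.0 and 87.3 CPM in the 3 without.

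**Figure D5:**
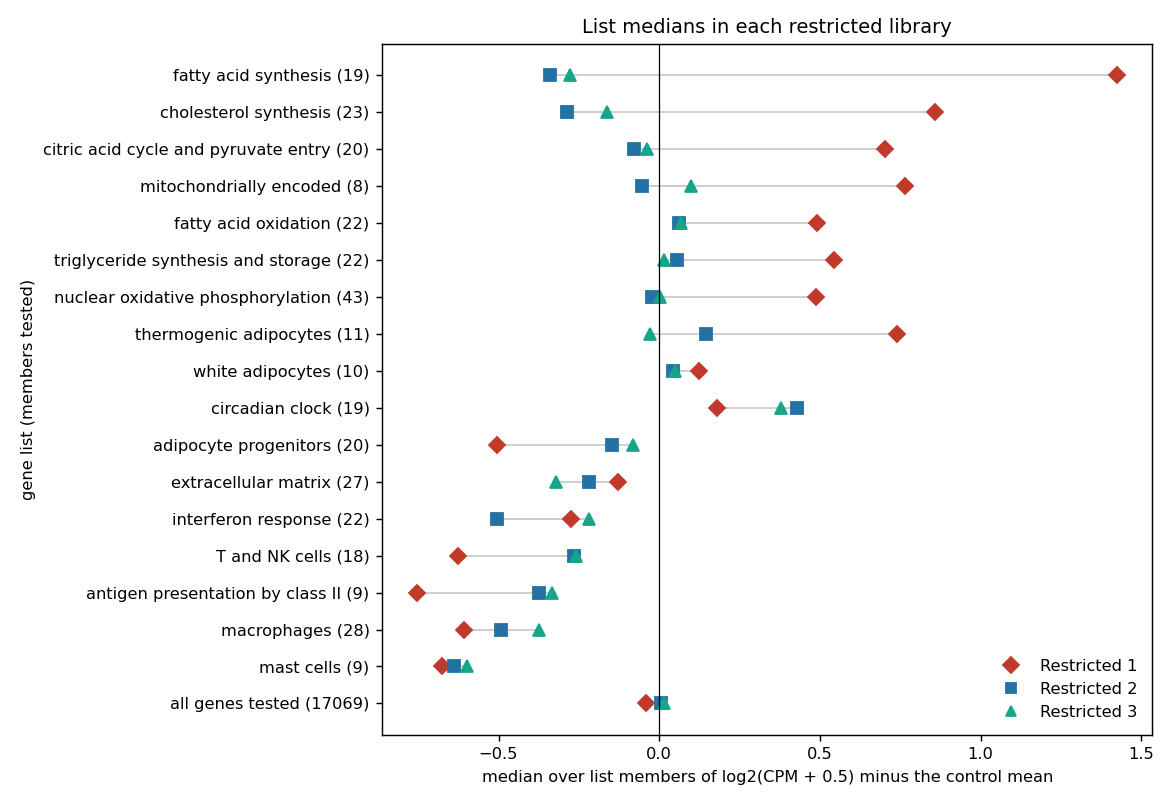
Horizontal axis, median over the tested members of each gene list (vertical axis, number tested in brackets) of log2(CPM + 0.5) minus the mean of the 7 controls, in each restricted library marked Yes. Lipid synthesis and mitochondrial lists lie farthest to the right in Restricted 1, while macrophage, mast cell and class II lists lie to the left in all 3 libraries.

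The 10 adipocyte markers showed little of the split as a list. Their medians were 0.12, 0.04 and 0.05 above the control mean in Restricted 1, 2 and 3. Of the 10, 4 were highest in Restricted 1, against 21.1% of all genes tested. Other lists of adipocyte function were higher in Restricted 1. Medians relative to the control mean were 0.54, 0.06 and 0.01 for 22 triglyceride synthesis and storage genes. For 13 fatty acid uptake and binding genes they were 0.64, −0.02 and 0.01. Lep, leptin, had 819 to 1525 CPM in controls and 1104, 1572 and 1811 CPM in restricted libraries (0.49 ± 0.21 SE, edgeR adjusted p = 0.232), so it was lowest in Restricted 1 among them. Pparg, the master regulator of adipocytes, and Pck1, the enzyme of glyceroneogenesis, had fold changes of 0.14 and 0.17 (edgeR adjusted p = 0.511 and 0.644), and their groups overlapped. Sfrp5, a secreted Wnt inhibitor that rises in expanding fat, was the reverse of Elovl6: it was at 21.7 CPM in Restricted 1, within the controls' 7.80 to 30.1 CPM, and at 101 and 104 CPM in the others, and was called only without Restricted 1 (2.18, edgeR adjusted p = 0.0317, against 1.75 and adjusted p = 0.0594 with it).

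The libraries marked No share no sample with these and gave 400 calls of 16584 genes (2.41%), 130 higher (0.784%) and 270 lower (1.63%). Of the 239 genes called in libraries marked Yes, 238 were tested there and 231 (97.1%) had the same sign, against 65.7% of all 16180 genes tested in both. The 76 genes called in both were 31.8% of the calls in libraries marked Yes and 19% of those in libraries marked No, and all had the same sign. Mcpt4, Cma1 and Tpsb2 had log2 fold changes of −1.62, −1.45 and −1.39 there, Bmper −1.40, Csf1r −0.58, Ciart 1.73 and Bmp3 1.15, all called (edgeR). Klf14 (0.12), Pllp (0.22), Cyp2f2 (−0.20) and Wt1 (−0.25) were not called there. The test of the difference itself, the product of diet and label over all 20 libraries, called 0 of 17813 genes (0%) in edgeR, with 1105 at an unadjusted p under 0.05, and DESeq2 called 4. The absence of a call in edgeR does not show that the responses were alike. Elovl6 also ranged widely among restricted libraries marked No, from 42.9 CPM in Restricted 7 to 224 in Restricted 5 and 373 in Restricted 10, beside 35.3 to 41.0 CPM in the 3 controls marked No.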

How the data were processed

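PolyA RNA of 20 fat libraries was sequenced as 52-base read pairs. The authors deposited a table of raw counts per gene (55401 genes), and GRCm38, Salmon, STAR and bcl2fastq 4.0.3 are listed in the submitters' processing notes. The sources used here do not state the strand setting. Depth was 18291602 to 38789768 counts in the 10 libraries marked Yes.

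From these counts, edgeR 4.0.16 (R 4.3.3) gave quasi-likelihood tests with TMM factors, filterByExpr at a minimum count of 10 and Benjamini-Hochberg adjustment at 0.05. The tests were run on simulated data first. Fits without Restricted 1, on libraries marked No and with a diet by label product were made alike. CPM used TMM over all 20 libraries, and log2 values a pseudocount of 0.5. The members and lists (42, with 2 added) were chosen with earlier results of these data known. Genes named were up to 12 higher and 12 lower calls by fold change with a mean of at least 1 CPM and no overlap, up to 8 each way following Restricted 1, 3 per list by p, 4 each way by interaction p, and fixed markers. Others (Acly, Me1, Acss2, Insig1, Lss, Pmvk, Clock, Dbp, Adgre1, Cpa3, Ntsr2, Podnl1, Ncan and Sorl1 among them) were named after their values were seen. Replicate numbers 1 and 2 were shared by both diets. Deviations of same-numbered libraries correlated at 0.059 and 0.124, which does not pair them. Alternatives were DESeq2 1.42.0, limma-voom 3.58.1, other factors and filters, index terms and left-out libraries.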

Additional observations from a re-analysis of the deposited data

Results flagged for a closer look

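Among 61 values checked over the 7 control libraries marked Yes, 5 had 1 library far from the rest (by Dixon's ratio, a distance that chance gives in about 1 of 20 groups). Hpca was highest in Control 2, at 24.6 CPM, with the next control at 13.9 CPM. Pth1r was lowest in Control 2, at 10.6 CPM, with the next at 15.8 CPM. H2-DMa was highest in Control 1, at 51.8 CPM, with the next at 42.6 CPM. The summed level of the macrophage genes was also highest in Control 1, at 2551 CPM against 2180 CPM in the next. The summed level of epididymis epithelium genes was 399.9 CPM in Control 1 and 92.8 CPM in the next control.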

How the results depend on the processing

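With all 10 libraries the 239 calls became 991 with DESeq2, 420 with limma-voom quality weights, 415 with a germ cell index as a term, 87 with a cilia index, 5 without the libraries with muscle transcripts, 2 with the RNA integrity number as a term and 0 without both Restricted 1 and 2 (edgeR, 2042 at an unadjusted p under 0.05). The cilia index and the last setting were chosen after seeing the data. Leaving out single libraries gave 13 to 226. The replicate block gave 313. Of the 239, 28.9% were higher in restricted libraries, against 18.8% of calls with nearly no filter, 42.2% with DESeq2 and 55% with limma-voom. Without Restricted 1 the 165 calls became 1112 with DESeq2, 654 with limma-voom, 332 with a stricter filter, 52 with the germ cell index, 5 without the libraries with muscle transcripts, 1 with the muscle index, 0 with the integrity number (edgeR, 1983 at an unadjusted p under 0.05) and 0 with the cilia index (edgeR, 1463), and 0 to 280 with a further library left out. In libraries marked No the 400 calls became 1072 with DESeq2 and 52 to 432 with single libraries left out. DESeq2 called 4 genes for the interaction. By DESeq2 31 called genes followed Restricted 1 and 554 were called again without it, and 5 calls of edgeR followed it when a larger share of the fold change had to be kept.

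Of 55 genes tried under every setting, 7 turned sign, none of them called with all libraries. Genes outside these 55 also turned without Restricted 1, as the report gives. Elovl6 was at −0.35 with limma-voom, −0.71 without the libraries with muscle transcripts, −0.86 without both Restricted 1 and 2, and −0.72 to 2.72 with single libraries left out. Fasn was at −0.75, −1.02 and −1.25 under these settings, −0.028 with the replicate block, and −0.95 to 1.23 with single libraries left out. Acly was at −1.06, −1.41 and −1.48, −0.39 with the block, and −1.48 to 1.35. Insig1 was at −0.17 both without the libraries with muscle transcripts and without both Restricted 1 and 2, and ranged from −0.18 to 1.45 with single libraries left out. Gys2 ranged from −0.041 to 2.05 and Pparg from −0.025 to 0.23 in the same way. Pck1 was at −0.062 without the libraries with muscle transcripts and −0.11 without both Restricted 1 and 2. The cause was not tested. The 42 called genes among the 55 kept their sign in the 25 settings, except that 40 of them were tested with label-associated genes removed. Leaving out libraries could hardly turn a sign, since the restricted libraries lay outside the controls in all but 1 of the 239 called genes. Of the 42, all stayed called with DESeq2, 15 without Restricted 1, 7 without Restricted 2 and 7 without Restricted 3. With the integrity number as a term 2 stayed called, and 1 without the libraries with muscle transcripts.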

Other observations

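Pituitary hormone transcripts, chosen after their values were seen, were high in single control libraries. Gh was at 767 CPM in Control 2 and 616 CPM in Control 9, and at 1.02 CPM or less in the other 8 libraries marked Yes. Pomc was at 1255 CPM in Control 2 and 6.64 CPM in Control 9, and at 0.77 to 1.75 CPM in the other 8. Neither was called (edgeR, adjusted p = 0.219 and 0.272).

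Restricted 2 and 3 lay above all controls while Restricted 1 lay below them for 353 genes (2.07% of those tested), including 3 of the 10 fat pad expansion genes. Of 21 cilia genes, 17 were above all controls in both Restricted 2 and 3, against 10.8% of all genes tested, and 2 in Restricted 1, against 24.4%.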
